A study of Drosophila melanogaster with 60 samples.

Results

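Trimethylation of lysine 4 on histone H3 (H3K4me3) was compared between brains of Or47b mutant males and brains of wild-type CS males of Drosophila melanogaster. The comparison used 12 of the 60 libraries of the study, 6 Or47b and 6 CS libraries made with the H3K4me3 antibody, chosen by the genotype and antibody in their labels and averaged over housing. Of 14894 peaks in the deposited H3K4me3 table, the 14513 whose mean across the 30 H3K4me3 libraries reached 10 were tested.

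The study profiled male brains by CUT&RUN, which sequences the DNA that an antibody-bound nuclease cuts out of chromatin, to ask how pheromone receptors, sex-determination genes and social housing bear on chromatin. It covered 5 genotypes, 2 housings and 3 biological replicates per group, with H3K4me3 and RNA polymerase II (RNAPolII) antibodies on separate libraries. CS is Canton-S, a common wild-type strain, and the Or47b males carried the alleles Or47b2 and Or47b3 in combination, written w+/Y; Or47b2/3;+/+ in the labels. The other mutants were Or67d (w+/Y; +/+; Or67dGAL4/GAL4), fru (w+/Y; +/+; fruLexA/4-40) and dsx (w-/Y; +/+; dsxf00683-d07058/f01649-d09625). Each H3K4me3 library pooled 15 brains of group-housed (GH) or single-housed (SH) males, and each RNAPolII library pooled 30. The ages of the flies and the genetic background of the mutant alleles are not stated in the labels. With no rescue or backcross in the labels, the Or47b alleles and the rest of the genome of these males cannot be told apart in this comparison.

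H3K4me3 marks the nucleosomes just downstream of the start sites of transcribed genes, where it is deposited by SET1 and Trithorax family methyltransferases and read by PHD-finger proteins. Or47b is an odorant receptor of antennal neurons that detects fatty acid derived cues of flies and promotes courtship by males. The cell bodies of these neurons lie in the antenna, and their axons enter the brain at the antennal lobe, so a brain library holds the cells downstream of the receptor rather than the cells that express it.

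The H3K4me3 libraries held between 2309386 and 4979417 reads in peaks for CS and between 3079626 and 4414573 for Or47b. Each library's mean correlation with the other 11 lay between 0.964 and 0.975. Values are reads per peak divided by 1 size factor per library, as the authors deposited them, and changes are differences of means of log2(value + 1). The contrast between strong and weak peaks within a library, on the log2 scale, was 5.21 ± 0.27 in CS and 5.44 ± 0.39 in Or47b (SD, n = 6 each). Among group-housed libraries the ranges overlapped, but among single-housed libraries the 3 Or47b values (5.50 to 6.04) all lay above the 3 CS values (5.09 to 5.29). The median change over the 3628 weakest tested peaks was -0.16, and over the 3629 strongest it was 0.08. All 11 neuron markers on the list used had a tested peak, and their summed level was 5163 to 6594 in CS and 4823 to 6956 in Or47b, and these ranges overlapped.

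H3K4me3 differed at a small set of peaks. Of the 14513 tested, 117 passed a limma adjusted p of 0.05, a background of 0.806%, with 62 higher (0.427%) and 55 lower (0.379%) in Or47b. Among called peaks the losses were deeper than the gains. Of these, 33 of the 55 lower and 14 of the 62 higher peaks moved by over 2-fold. The median change was -1.13 for the lower and 0.59 for the higher peaks. Lower calls lay at weaker peaks, with a median CS level of 60.8 against 132 for higher calls. The 3628 weakest tested peaks held 10 lower and 2 higher calls, and the 3629 strongest held 11 and 24. Their median SEs were 0.33 and 0.09, so a weak peak needed a larger change to be called. Unplaced and Y sequences held 13 of the lower and 4 of the higher calls. Whether losses were deeper at equal peak strength and place was not tested. At 61 of the 117, 25 higher and 36 lower, the 6 Or47b libraries did not overlap the 6 CS libraries, against 107 (0.737%) of all tested peaks, 49 above (0.338%) and 58 below (0.4%). Leaving out 1 CS library, group-housed replicate 3, raised the count of called peaks to 200, and each of the other 11 left-out libraries moved it by less than 1.5 times. As libraries come from whole brains, fewer cells with the mark and less mark per cell cannot be told apart.

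On the log2(value + 1) scale the largest gain over a gene was at hppy, the gene of happyhour, a Ste20-type kinase of the MAP4K group that acts on TOR and EGF receptor signalling. The peak at 2R:19218828-19220031 lay between 13.5 and 28.8 in the 6 CS libraries (median 22.2) and between 137 and 168 in the 6 Or47b libraries (median 152). Every Or47b library was several times above every CS library, with a ratio of means of 6.93 and a log2 change of 2.78 ± 0.23 (SE, limma adjusted p = 1.93e-16). The strongest peak over hppy, which lies elsewhere in the gene, had a mean of 624 in CS and 640 in Or47b, and none of the 7 other tested peaks over hppy passed the test. The polymerase peak that spans this site also rose, from 494 to 715 in mean RNAPolII level (log2 change 0.53, limma adjusted p = 1.56e-06). A nearby called peak over CG7137 and cora, the gene of the septate junction protein Coracle, rose too, from 489 ± 49.0 to 626 ± 65.5 (SD, n = 6, limma adjusted p = 0.0262).

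A second large gain lay on chromosome 4 over the non-coding RNA gene lncRNA:CR45199. This peak at 4:597344-598429 ranged from 14.1 to 33.6 in CS (median 24.0) and from 67.5 to 251 in Or47b (median 142). Or47b libraries were all above CS but spread widely among themselves, and the ratio of means was 6.93 and the log2 change 2.67 ± 0.21 (SE, limma adjusted p = 6.49e-17). The 4 called peaks on chromosome 4 were all higher, out of 163 tested there.

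Over d4, which encodes a PHD-finger protein related to subunits of chromatin-remodelling complexes, CS libraries ranged from 6.40 to 31.2 (median 19.5) and Or47b libraries from 71.6 to 87.1 (median 76.4). The groups were far apart and the Or47b libraries were tightly grouped (log2 change 2.12 ± 0.22 SE, limma adjusted p = 5.06e-12). RNAPolII over d4 had a mean of 384 in CS and 392 in Or47b (limma adjusted p = 0.953). The peak shared by sut1 and sut2, neighbouring genes for sugar transporters, ranged from 30.4 to 64.4 in CS (median 37.4) and from 82.3 to 153 in Or47b (median 130). All Or47b libraries exceeded all CS libraries there, with a log2 change of 1.55 ± 0.20 (SE, limma adjusted p = 9.9e-09). Smaller peaks over asRNA:CR44168 with CG34423 and over CG13954 with CG13739 rose by 1.88 and 1.37 on the log2 scale without overlap between the groups. At CG32767 the change was 1.24, and the call was lost under edgeR (adjusted p = 0.314), under DESeq2 (0.397) and without CS group-housed replicate 1 (0.0635).

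**Figure D1:**
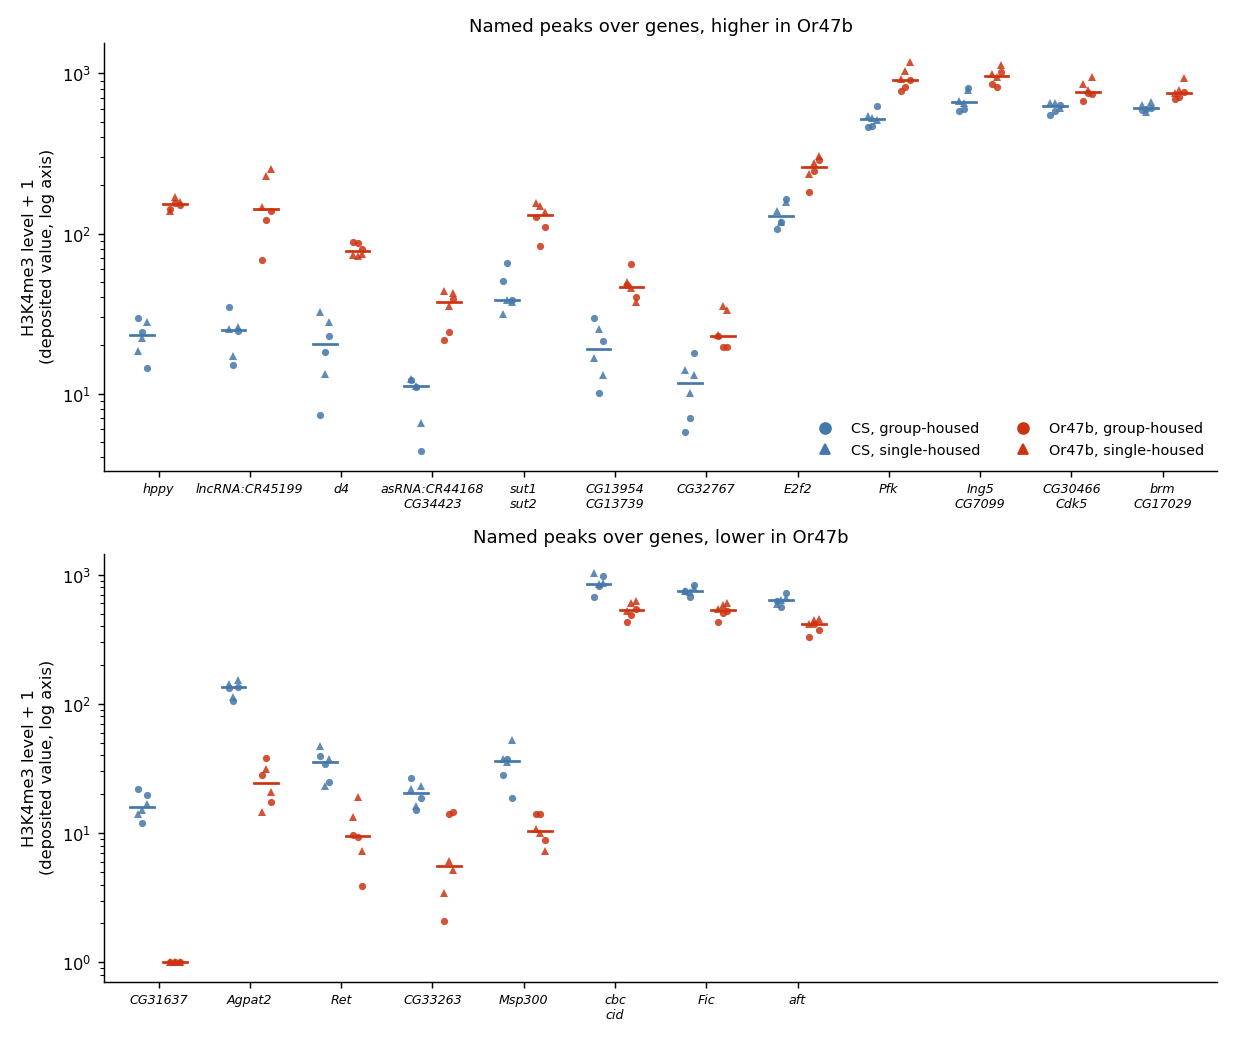
H3K4me3 level plus 1 on a log axis for the named peaks over genes, with 1 point per library (circles group-housed, triangles single-housed) and a bar at the median of the 6 libraries of CS (blue) and of Or47b (red). At hppy the Or47b libraries sit between 137 and 168 and the CS libraries between 13.5 and 28.8, while at CG31637 all 6 Or47b libraries are at 0, drawn at 1.

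Glycolysis genes held gains at a pair of strong peaks. Pfk encodes phosphofructokinase, the enzyme of the committed step of glycolysis. The Pfk peak at 2R:10109931-10111891 ranged from 462 to 622 in CS (median 519) and from 772 to 1174 in Or47b (median 912). No Or47b library came down to the highest CS library, and the log2 change was 0.84 ± 0.09 (SE, limma adjusted p = 1.67e-11). The peak over Eno, the gene of enolase, is shared with Rrp40 and CG31937 and ranged from 650 to 878 in CS (median 681) and from 782 to 1261 in Or47b (median 1040). The groups overlapped at Eno, with a log2 change of 0.51 ± 0.09 (SE, limma adjusted p = 9.02e-05). Of 13 glycolysis and trehalose genes with a tested peak, these 2 were called higher and none lower, where 0.952% of the strongest peaks over all genes were called, and the strongest peaks of the 13 had a median change of 0.08 against 0.06 over the 9504 genes with a tested peak. Hex-A, Gpdh1, PyK, Tpi, Gapdh1 and Pgi, which act around these steps, had changes between -0.12 and 0.09, and none passed the test. Hex-C and Ldh had changes of 0.22 and 0.28 and did not pass either. This list was chosen with earlier results of these data known, so the calls at Pfk and Eno are no separate support for a change of the list. RNAPolII over Pfk had means of 233 in CS and 247 in Or47b (limma adjusted p = 0.903).

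Called losses lay over Agpat2 and FASN2. Agpat2 encodes an acyltransferase that makes phosphatidic acid from lysophosphatidic acid, a step of glycerolipid synthesis. A peak over it at 2L:8462127-8462695 ranged from 104 to 152 in CS (median 133) and from 13.5 to 37.0 in Or47b (median 23.5). The Or47b libraries were all far below the CS libraries, with a log2 change of -2.44 ± 0.20 (SE, limma adjusted p = 9.17e-17). The strong peak that Agpat2 shares with prg, just beside it, had means of 685 ± 76.4 in CS and 518 ± 64.1 in Or47b (SD, n = 6), and the groups overlapped (log2 change -0.40, limma adjusted p = 0.0051). FASN2, the gene of a fatty acid synthase, ranged from 51.2 to 95.6 in CS (median 65.0) and from 21.2 to 63.8 in Or47b (median 34.1). These groups overlapped too, and the fall of 0.86 on the log2 scale passed limma (adjusted p = 0.00198) but not edgeR (0.187) or DESeq2 (0.205). Of 15 lipid genes with a tested peak, 2 were called lower at their strongest peak and none higher, beside the same 0.952% over all genes. The median change of the 15 was 0.06, equal to that of all genes to 2 decimals. The lipid list too was chosen with earlier results known, so its 2 calls are no separate support for a change of the list.

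The deepest loss over a gene was at CG31637. This peak at 2L:6516159-6516663 ranged from 11.1 to 20.8 in CS (median 15) and was at 0 in all 6 Or47b libraries. Taking 3 reads as the floor for each library, the mean level was at least 4.98-fold lower in Or47b (limma adjusted p = 3.93e-16), and none of the 5 other tested peaks over CG31637 passed the test. Ret, the gene of a receptor tyrosine kinase of neurons, ranged from 22.3 to 46.0 in CS (median 34.7) and from 2.92 to 18.2 in Or47b (median 8.51). The groups did not overlap, and the change was -1.84 ± 0.26 (SE, limma adjusted p = 5.45e-07). A peak over Msp300, the gene of a giant nesprin that links nuclei to the cytoskeleton and is best known from muscle and is on the muscle marker list, ranged from 17.8 to 52.0 in CS (median 35.4) and from 6.25 to 13.1 in Or47b (median 9.45). All Or47b libraries lay below all CS libraries (log2 change -1.67 ± 0.29 SE, limma adjusted p = 6.49e-05), and the RNAPolII peak spanning it fell from 692 to 477 (adjusted p = 0.000125). The 9 other tested peaks over Msp300 had changes between -0.95 and 0.00 and none passed. At CG33263 the change was -1.73 without overlap (limma adjusted p = 0.00206), and the call was lost without Or47b group-housed replicate 1 (0.0579).

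The strongest lower peaks over genes that met the naming rule, which required separate groups, were at cbc with cid, aft and Fic. The peak shared by cbc, the gene of an RNA kinase, and cid, the gene of the centromeric histone H3 variant, ranged from 677 to 1025 in CS (median 853) and from 429 to 629 in Or47b (median 532). The change was -0.69 ± 0.09 (SE, limma adjusted p = 8.75e-08), and the groups did not meet. At aft (adrift), known from tracheal development, CS libraries ranged from 564 to 725 (median 634) and Or47b libraries from 330 to 454 (median 417). This fall of 0.65 on the log2 scale was also without overlap (limma adjusted p = 4.38e-07). Fic encodes an enzyme that AMPylates the chaperone BiP and is needed for visual transmission in the fly. Its peak ranged from 676 to 839 in CS (median 746) and from 429 to 602 in Or47b (median 537), again with separate groups (log2 change -0.51 ± 0.09 SE, limma adjusted p = 6.75e-05). RNAPolII at cbc with cid, at aft and at Fic did not pass the test, with log2 changes of 0.02, -0.08 and -0.03.

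Further gains lay over E2f2, Ing5, Cdk5 and brm. E2f2 encodes the repressor E2F of the fly, which works within the dREAM complex. A peak at 2L:21154013-21154823 over E2f2 ranged from 106 to 162 in CS (median 127) and from 180 to 304 in Or47b (median 259). All Or47b libraries were above all CS libraries (log2 change 0.93 ± 0.12 SE, limma adjusted p = 2.87e-08). The stronger peak that E2f2 shares with Mpp6 and Coq3 had means of 1076 and 1296, and its change of 0.26 did not pass (adjusted p = 0.19). Ing5, whose human counterpart reads H3K4me3 through a PHD finger, shares a peak with CG7099 that ranged from 579 to 814 in CS and from 822 to 1133 in Or47b, without overlap (log2 change 0.50, limma adjusted p = 0.000217). The peak of Cdk5, a neuronal kinase, and CG30466 rose by 0.37 (limma adjusted p = 0.0103), a call lost without CS group-housed replicate 1 (0.0545) or Or47b single-housed replicate 3 (0.0718). The peak of brm, the ATPase of the Brahma remodelling complex, and CG17029 had means of 610 and 773 (log2 change 0.33, limma adjusted p = 0.0333). That call was lost without any 1 of 7 libraries, CS group-housed 1 and 2, CS single-housed 1 and 2, Or47b group-housed 2 and 3 and Or47b single-housed 3, with adjusted p up to 0.218.

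Peaks over the pheromone pathway itself were not called. No H3K4me3 peak of the deposited table overlapped Or47b. Of 23 pheromone-reception genes, 11 had a tested peak, with changes from -0.21 (amos, a proneural factor of olfactory sensilla) to 0.23 (acj6, a POU factor of olfactory neurons), 5 positive and 6 negative, and none was called. Orco, the co-receptor of odorant receptors, had a mean of 40.8 in CS and 46.6 in Or47b (limma adjusted p = 0.755). All 15 genes for sex determination and courtship had a tested peak, and none was called either. Among them fru had means of 303 and 286 and dsx of 94.1 and 96.5. Over all genes 0.952% of the strongest peaks were called, so lists of this size are likely to hold no call. The absence is therefore not a result about the genes of these lists. For juvenile hormone, whose receptors are Met and gce, 11 of 15 genes had a tested peak. Their strongest peaks included no call, with Met at 0.05, gce at 0.03 and the response gene Kr-h1 at -0.07 on the log2 scale. A weaker peak over tai, the gene of a coactivator of Met and of the ecdysone receptor, had means of 84.0 ± 24.8 and 50.5 ± 12.1 (SD, n = 6, log2 change -0.70, limma adjusted p = 0.0282). The tai groups overlapped, the call was lost under edgeR (0.208), DESeq2 (0.298) and with a covariate for strong against weak peaks (0.182), and it was also lost without any 1 of CS group-housed 1 and 2, CS single-housed 2, Or47b group-housed 1 and 3 and Or47b single-housed 3, with adjusted p up to 0.269.

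Further gene lists, for neuronal function and beyond, held few calls, as did genes in general. None of the 29 tested genes of calcium, cAMP and activity signalling, the 31 of synaptic vesicles and active zones, the 17 neuropeptides, the 16 H3K4 methylation enzymes and readers, the 10 detoxification genes or the 14 immune genes held a called peak. Their strongest peaks had median changes of 0.03, 0.06, -0.01, 0.08, -0.18 and 0.00, against 0.06 over all genes. Over all genes 0.952% of the strongest peaks were called. At so small a share a list of this size is likely to hold no call, so the absence is not a result about these genes. Of the 28 tested genes for ion channels and calcium stores, RyR, the ryanodine receptor that releases calcium from the endoplasmic reticulum, held a called peak. This weak RyR peak at 2R:8862476-8862873 ranged from 25.4 to 45.1 in CS (median 30.4) and from 7.06 to 19.4 in Or47b (median 16.0). The groups did not overlap (log2 change -1.10 ± 0.23 SE, limma adjusted p = 0.00181), and the call was missed by edgeR (0.053) and DESeq2 (0.0671). RNAPolII at the same site fell from 82.9 to 42.8 in mean level (log2 change -0.94, limma adjusted p = 0.000473). The 11 other tested peaks over RyR did not pass. In TOR and insulin signalling, 17 genes had a tested peak and hppy alone held a call, at the peak described above. In E2F and dREAM 14 had one and E2f2 alone held a call. The calls at RyR, hppy and E2f2 were not at the strongest peak of the gene. The share of all genes with a call at any peak is not given here, and a gene with many peaks has more chances of one. Lists were chosen with earlier results of these data known, so these calls are no separate support for a change of a list.

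Markers of cells beside neurons were not called at their strongest peaks, and Msp300 alone held a call at another peak. Photoreceptor markers were lower at 11 of 13 genes (median change -0.24), muscle markers at 9 of 10 (-0.20) and glia markers at 7 of 9 (-0.11). The median CS level of these markers was 58.3, 42.1 and 34.9, and many members lay below 33.5. The 3628 tested peaks with means between 33.5 and 263 had a median change of -0.01. For the 3628 with means between 17.5 and 33.5 it was -0.13. Photoreceptor markers below 33.5 in CS had changes from -0.64 to -0.24. Those of the muscle list had -0.34 to -0.14 and those of the glia list -0.57 to 0.12. Whether markers differ from other peaks of equal strength was not tested. Msp300, whose called loss is given above, is on the muscle list, where its strongest peak was not called. The summed level of the photoreceptor list was 2303 to 2718 in CS and 2128 to 2874 in Or47b, that of the muscle list 2508 to 3073 and 2398 to 3125, and that of the glia list 318 to 410 and 304 to 357. These sums overlapped between genotypes. Those of the photoreceptor and muscle lists are carried by a few strong peaks, most of them shared with other genes. An example is the peak of Tm1 with MRG15 and l(3)neo43 at 2052 in CS. Such sums say little about the weaker members of those lists. No marker with a tested peak had a mean under 10 in CS. Fat body, hemocyte and trachea lists had median changes of -0.02, 0.01 and -0.18 with no call. Their part in the called losses was not tested.

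The called peaks were unevenly placed. Chromosome arms 2L and 2R held 32 (1.24%) and 40 (1.26%) of their tested peaks as calls, while X held 2 of 1604, 3L held 14 of 3207 and 3R held 8 of 3737. Sequences not placed on a chromosome arm, or mapped to Y scaffolds, held 17 calls among 52 tested peaks (32.7%), 13 of them lower. Of the 30 called peaks over no annotated gene, 17 were these, and on X, 2, 3 and 4 it was 13 of 100 calls (13%) against 10.8% of tested peaks. Of the 100 calls on X, 2, 3 and 4, 21 lay within 50 kb of another in 9 runs, and 4 runs held both directions. One run on 2L joined gains at del, E2f2 and Atg18b with CG8679 to the loss at Ret within 70.8 kb. Another on 2R paired a fall over CG42362 and CG42363 with a rise over CG42365 within 3.09 kb.

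The Or47b gene lies on 2R, where 40 of 3167 tested peaks (1.26%) were called. An RNAPolII peak over nompA, Or47b and sha fell from 283 ± 28.3 in CS to 216 ± 27.9 in Or47b (SD, n = 6, log2 change -0.39, limma adjusted p = 0.0218). As the peak spans 3 genes and the labels do not say what the alleles remove, it does not check the genotype labels. Within 100 kb of that peak, 37 H3K4me3 peaks were tested and 1 was called, over thetaTry, a trypsin-family gene, with means of 46.1 ± 6.39 in CS and 23.6 ± 10.6 in Or47b (SD, n = 6, limma adjusted p = 0.00361). The nearest tested peak, over nompA, had means of 79.3 and 69.2 (limma adjusted p = 0.752). On 2R, 3 of 321 tested peaks within 1 Mb were called (0.935%), and 21 of 1462 beyond 5 Mb (1.44%), beside 0.806% of all tested peaks. With 1 call among 37 peaks, the 100 kb window is too small for its share to be read against these.

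**Figure D2:**
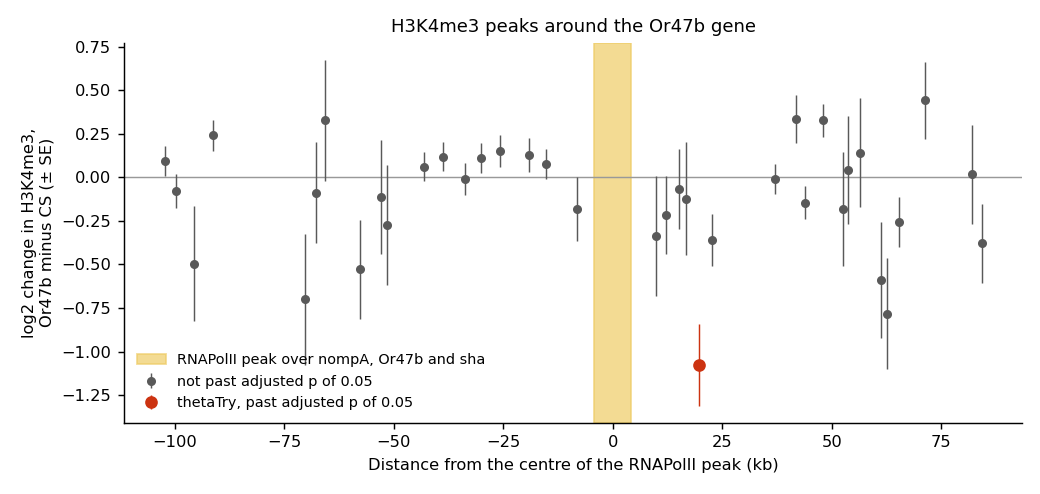
Log2 change in H3K4me3 with its SE for each of the 37 tested peaks within 100 kb of the RNAPolII peak spanning nompA, sha and Or47b, against distance from the centre of that peak in kb. The thetaTry peak, at -1.07, is the single call, and the shaded band is the polymerase peak.

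Several named losses and gains lay on Y-linked and unplaced sequences. The peak at Y_mapped_Scaffold_18_D1698:26019-28220 ranged from 413 to 643 in CS (median 519) and from 80.2 to 168 in Or47b (median 131). No library of either genotype came near the other genotype's range, and the change was -2.06 ± 0.12 (SE, limma adjusted p = 1.29e-25). A second peak of that scaffold at 11282-12198 ranged from 641 to 890 in CS and from 317 to 448 in Or47b (log2 change -1.14, limma adjusted p = 1.93e-16). Unplaced sequence 211000022279266 held a peak that fell from a mean of 46.3 to 6.11, and 211000022279810 one that fell from 77.2 to 20.8, both without overlap. Gains were fewer there: at 211000022279901:1-1014 CS libraries ranged from 10.1 to 24.0 and Or47b libraries from 29.5 to 58.8 (log2 change 1.50, limma adjusted p = 0.000201). Near the end of 2L a peak over no gene at 2L:5571-5946 ranged from 13.1 to 32.5 in CS and from 0 to 3.89 in Or47b (log2 change -3.66, limma adjusted p = 1.77e-14). None of these peaks overlapped an annotated gene.

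RNAPolII at the called peaks showed where a second antibody, on separate libraries, moved along. Of the 117 called H3K4me3 peaks, 91 overlapped a tested RNAPolII peak, and 71 of these (78.0%) had a polymerase change of the same sign, against 48.2% over all tested H3K4me3 peaks that had one. Polymerase passed its own test in the same direction at 25, against 118 of 21076 RNAPolII peaks called in all (0.56%), and at none in the opposite direction. The counts differed by place: on unplaced and Y sequences all 17 called peaks had the same sign and 15 were called for polymerase, while on X, 2, 3 and 4 it was 54 of 74 (73.0%) and 10. Among RNAPolII peaks in general, 16.7% of the 348 tested on unplaced and Y sequences were called and 0.289% of the 20728 on X, 2, 3 and 4. On the named chromosomes the shared rises were at hppy, at Pdp1, the gene of a bZIP activator of the circadian clock (RNAPolII 327 to 453, adjusted p = 0.0236), and at 4:455564-456446 over no gene. Shared falls over genes were at Msp300, RyR, pdm2 and lola. At pdm2, a POU factor of neuroblasts, RNAPolII fell from 275 ± 34.6 to 174 ± 18.7 (SD, n = 6, limma adjusted p = 6.06e-05). At lola, a BTB zinc-finger factor of axon guidance, the RNAPolII means were 125 and 71.0 (limma adjusted p = 0.00521). By contrast, Pfk, d4, sut1 with sut2, cbc with cid, aft and Fic changed in H3K4me3 while the RNAPolII peaks overlapping them did not pass. Their log2 changes lay between -0.08 and 0.09. Except at Pfk, these RNAPolII peaks are longer and span further genes, such as sut3 and sand beside sut1 and sut2. A polymerase change confined to the H3K4me3 site was therefore not measured apart there.

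**Figure D3:**
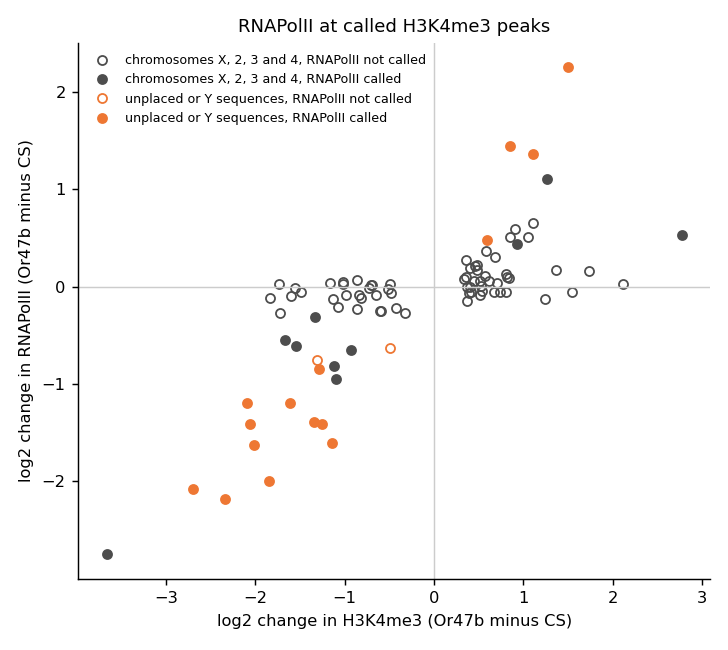
Log2 change in RNAPolII against log2 change in H3K4me3 for the 91 called H3K4me3 peaks with a tested RNAPolII peak, grey on chromosomes X, 2, 3 and 4 and orange on unplaced or Y sequences, filled where RNAPolII passed its own test. All 17 orange points have the same sign in both, as do 54 of the 74 grey points.

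No difference between housings passed the test over all 12 libraries. Or47b differed from CS at 36 peaks among group-housed males (0.248%, with 13 or 0.0896% higher and 23 or 0.158% lower) and at 109 among single-housed males (0.751%, with 56 or 0.386% higher and 53 or 0.365% lower). The change itself differed between housings at 0 peaks by limma, where 1651 (11.4%) had an unadjusted p under 0.05 and the lowest adjusted p was 0.189. Leaving out CS group-housed replicate 2 raised that count from 0 to 117. The edgeR fit, which called 50, also lacked that library and Or47b single-housed replicate 2. Of the 117 peaks called on the mean of both housings, 116 had the same sign in each, which that selection favours, against 45.9% of all tested peaks. Of the 117, 36 were also called in the group-housed comparison, 73 in the single-housed, 24 in both and 32 in neither. Quantile normalization turned the group-housed split to 43 higher and 39 lower. The group-housed count fell to 23 without Or47b replicate 2. The single-housed count was 55, 44 and 68 without CS replicate 1, 2 and 3, 211 without Or47b replicate 1 and 46 without Or47b replicate 3, so it depends on each of these libraries. The contrast of strong against weak peaks, given above, moves with genotype in this housing. With it as a covariate, an alternative chosen for single housings after the data were seen, single-housed calls fell to 38 and group-housed calls rose to 74, so the larger single-housed count does not hold under it. The comparison over both housings then called 146 peaks, and the difference between housings 0.

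Sizes in the 2 housings were close at some leading peaks and apart at others. At hppy the log2 change was 2.77 in group-housed and 2.78 in single-housed males, at Agpat2 -2.22 and -2.67, at E2f2 0.88 and 0.98 and at cbc with cid -0.75 and -0.63. At lncRNA:CR45199 they were 2.16 and 3.18 (adjusted p of the difference 0.411) and at d4 2.54 and 1.69 (0.439). The Pfk gain was 0.70 and 0.98, and both passed. For sut1 with sut2 the values were 1.06 (limma adjusted p = 0.0778) and 2.04 (adjusted p = 2.06e-07), and the difference between housings had an adjusted p of 0.411. Near the left end of 3L, mthl8, a gene of the Methuselah-like receptor family, ranged from 99.8 to 337 in CS and from 260 to 489 in Or47b, with changes of 0.38 in group-housed and 1.44 in single-housed males (limma adjusted p = 3.12e-05 for the latter, 0.411 for the difference). Weak peaks over Rbfox1 with CG6527 and over CG7742 had changes of -0.48 and -0.32 in group-housed and -2.62 and -2.16 in single-housed males, and neither difference passed (adjusted p = 0.411 each). At the weak Tsen15 peak, a gene of tRNA splicing, the order was reversed, with -1.70 in group-housed and -0.63 in single-housed males (adjusted p of the difference 0.439). The call on the mean of both housings was lost in 12 of 21 alternative fits at Rbfox1 with CG6527 and in 4 of 21 at Tsen15.

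**Figure D4:**
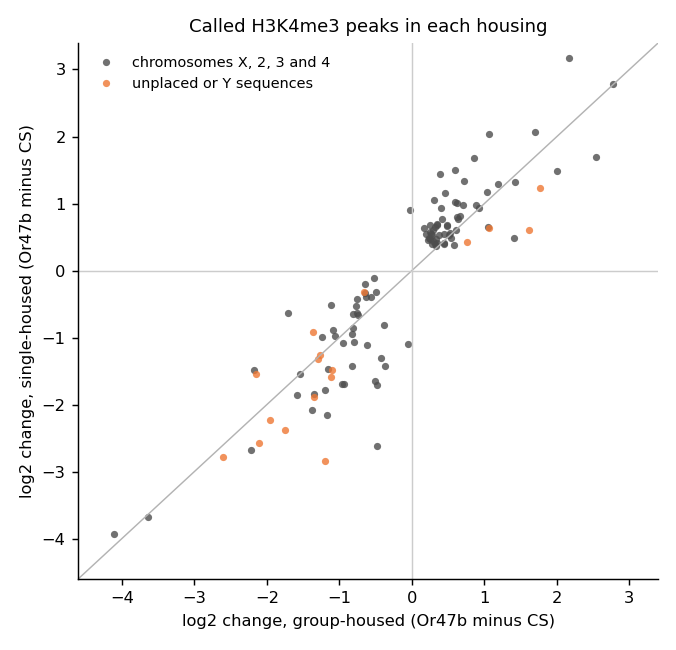
Log2 change in single-housed males against log2 change in group-housed males for the 117 called peaks, grey on chromosomes X, 2, 3 and 4 and orange on unplaced or Y sequences, with the line of equal change. Of the 117, 116 have the same sign in both housings.

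The levels in the other mutants were set beside those of Or47b and CS. Over the 117 called peaks, CS was the most extreme genotype at 73 and Or47b at 69, with the pair at opposite ends at 33. The named peaks below are therefore not a measure of how often Or47b alone stood apart. Or47b was set against the mean of Or67d, fru and dsx, a comparison that shares the Or47b libraries with the one above, and 312 peaks were called (2.15%, with 115 or 0.792% higher and 197 or 1.36% lower, and 317 against 330 after quantile normalization), or 201 without Or47b single-housed replicate 1. Named peaks were chosen for their change in these same Or47b libraries. Their adjusted p values here are therefore not separate support, and the levels are read side by side. At hppy the means of Or67d, fru and dsx were 18.5, 19.8 and 17.1, near the CS mean of 21.9 and far from the Or47b mean of 151 (limma adjusted p = 1.27e-23 against the 3). At CG31637 they were 20.3, 18 and 18.4, while Or47b was at 0 (adjusted p = 1.83e-22). Pfk, with 539, 551 and 599, and sut1 with sut2, with 29.3, 57.0 and 34.7, also stood near CS and apart from Or47b (adjusted p = 5.52e-13 and 4.01e-14). The same held for lncRNA:CR45199, with 34.7, 21.7 and 28.7 (adjusted p = 1.37e-19), for Fic, with 858, 791 and 861 (adjusted p = 5.27e-11), and for aft, with 603, 670 and 560 (adjusted p = 1.2e-08).

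Elsewhere the other mutants stood with Or47b or between. At the Agpat2 peak that it shares with no other gene, fru and dsx had means of 22.5 and 21.0, like Or47b at 24.0, and Or67d had 77.8 against 129 in CS (limma adjusted p = 0.064 for Or47b against the 3). At cbc with cid all 4 mutants lay between 514 and 611 and CS at 865 (adjusted p = 0.831). The Eno peak was likewise at 991, 1064 and 968 in Or67d, fru and dsx, beside 1033 in Or47b and 721 in CS (adjusted p = 0.899). E2f2 was intermediate, with 163, 215 and 178 between 133 in CS and 254 in Or47b (adjusted p = 0.0016), and so were d4, with 36.6, 38.7 and 49.4 (adjusted p = 0.000162), and Msp300, with 18.5, 25.9 and 16.8 (adjusted p = 0.0233). The mthl8 peak was at 0.797 in Or67d, 592 in fru and 617 in dsx, beside 202 in CS and 365 in Or47b, so it also varied among the other genotypes. All of these mutants are compared with the same 6 CS libraries, which cannot show whether CS or the mutants moved.

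**Figure D5:**
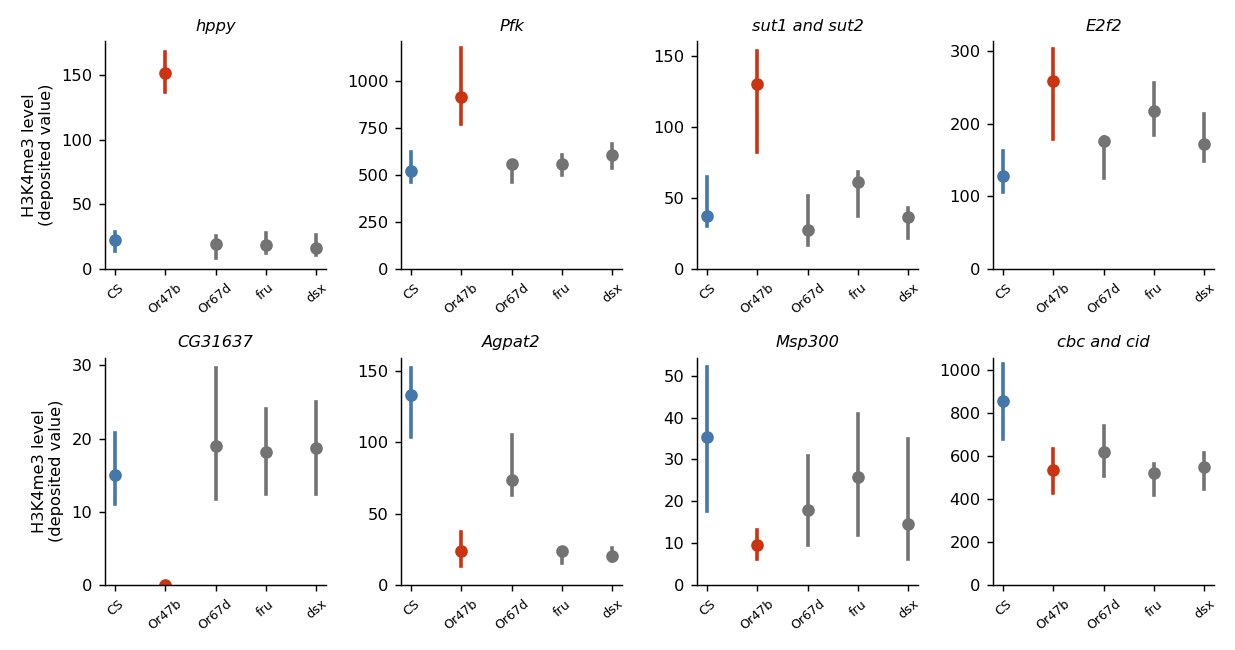
H3K4me3 level of 8 named peaks in the 6 libraries of each genotype, with a point at the median and a line from the lowest to the highest library. Or47b stands apart from all 4 other genotypes at hppy and CG31637, whereas at cbc with cid CS is above the 4 mutants in median level.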

How the data were processed

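Collagenase-treated brains went through the CUTANA CUT&RUN kit and were sequenced as 75 bp read pairs, per the labels' protocols. The submitters' processing notes list DESeq2, MACS2, Bowtie2, Trim Galore and ChIPseeker with no version or role. Neither the genome build nor the merging of peaks is given in the sources used here. Signal in the deposited table of each antibody is the read number of a peak over a library's size factor, judged from the values. Values were whole multiples of the value of 1 read within 0.01 reads, from which reads per library were taken. CS columns carry other replicate numbers than the titles and were matched by the library name in the descriptions. Every column had a sample.

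Peaks with a mean of at least 10 over 30 libraries were fitted on log2(value + 1) with limma 3.58.1 (10 group means, trended variance) in R 4.3.3, with Benjamini-Hochberg adjustment over all 14513 peaks and a threshold of 0.05. The fit recovered seeded changes in simulated data. RNAPolII was fitted the same way. edgeR 4.0.16 (quasi-likelihood) and DESeq2 1.42.0 were run on the recovered reads without 4 H3K4me3 libraries, CS group-housed 2 and Or47b single-housed 2 among them, whose step was not accepted by a separate check, so their read totals are less sure. Peaks were named by overlap with RefSeq gene spans (Release 6 plus ISO1 MT), for names only, so exons, introns and strand are not given. Of 397 list symbols 395 matched. A list gene is described by its strongest tested peak.

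Named peaks were, among calls with no overlap between genotypes, the 12 largest changes and 4 highest means per direction, then 3 per housing and direction, every list gene past the threshold and all peaks within 100 kb of the RNAPolII peak over Or47b. Members and lists were chosen with earlier results of these data known. Replicates are separate pools of brains, per the labels. SDs and SEs cover the spread between pools, and the floor of 3 reads covers counting error only.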

Additional observations from a re-analysis of the deposited data

Results flagged for a closer look

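Among the 6 libraries of a genotype, 1 library lay far from the others at 3 named peaks, out of 62 genotype groups looked at over 31 peaks, where chance flags about 1 in 20. At the peak of brm with CG17029, Or47b single-housed replicate 3 was at 941, and the other 5 Or47b libraries lay between 689 and 782. At Y_mapped_Scaffold_18_D1698:1363-1811, Or47b group-housed replicate 1 was at 1.09 and the others at 0. As 1.09 is the value of 1 read in that library, this flag rests on 1 read. At Y_mapped_Scaffold_18_D1698:11282-12198, CS single-housed replicate 2 was at 641 and the other CS libraries lay between 810 and 890. The last of these stayed above every Or47b library, whose highest value was 448.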

How the results depend on the processing

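There were 22 alternatives, but named peaks with a mean under 50 were tested in 21 of them. Of 46 named peaks called in the first comparison, 34 were called in every alternative that tested them. The other 12 were lost in at least 1, and none reversed. The first comparison called 117 peaks. Counts ran from 84 to 200 over the 12 left-out libraries, and were 205 after quantile normalization (119 higher and 86 lower) and 262 with the replicate block. At a mean of at least 50 it called 70 higher and 29 lower. Group-housed calls numbered 36, ran from 23 to 46 over left-out libraries and were 82 after quantile normalization. Single-housed calls numbered 109, ran from 44 to 211 and were 1022 with the replicate block. With a covariate for strong against weak peaks, added after the data were seen for each housing, calls numbered 74 in group-housed and 38 in single-housed males. The difference between housings had 0 calls, 50 by edgeR (also added later), 1 at a mean of at least 50, 1 with the replicate block and 0 to 117 over left-out libraries. Against the other 3 mutants, 312 calls became 647 after quantile normalization, 723 with the replicate block and 201 to 329 over left-out Or47b libraries. Same-numbered CS and Or47b libraries had correlated deviations of 0.0565, 0.2002 and 0.2852 in group-housed and -0.0673, 0.0508 and 0.0863 in single-housed males, so the numbers were not taken to pair samples and the block result stands as an alternative. The cause of these shifts was not tested. Depth limits weak peaks: the median SE was 0.33 over the 3628 weakest peaks and 0.09 over the 3629 strongest.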

Other observations

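Some called genes outside the naming rule were chosen for mention after their values were seen. Among the gains, mre11, a nuclease of double-strand break repair, rose from 248 ± 36.0 to 412 ± 35.4, the peak of Sws1 with Rad1, a checkpoint clamp gene, from 149 ± 23.4 to 264 ± 52.5, and the peak of Ctf4, a replisome factor, with CG8067 from 503 ± 29.9 to 664 ± 50.5 (SD, n = 6, limma adjusted p = 3.29e-07, 6.38e-07 and 0.00404). None of these 3 overlapped between genotypes. The piRNA pathway genes del and spn-E, the latter sharing its peak with Pbp45, rose by 0.70 and 0.40 on the log2 scale (limma adjusted p = 0.00026 and 0.0139). Dscam2, a cell-surface protein of neurite tiling, rose from 33.6 ± 5.34 to 55.0 ± 5.62 (limma adjusted p = 0.0348), also without overlap.

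Losses outside the rule included weak peaks over 4 transcription factor genes. The LIM-homeodomain gene ap (apterous) fell from 53.1 ± 8.13 to 25.9 ± 6.02, lola from 60.8 ± 16.9 to 27.6 ± 7.96, pdm2 from 63.6 ± 19.6 to 32.7 ± 8.30 and the eye gene so (sine oculis) from 25.2 ± 9.86 to 10.2 ± 6.14 (SD, n = 6, limma adjusted p = 0.000108, 0.000911, 0.00524 and 0.0172). Genotypes did not overlap at ap and lola and overlapped at pdm2 and so. Single peaks over Mtp and CPT2, which were on no list used, were called lower. Mtp, which loads lipid onto lipoproteins, had a change of -0.82 without overlap (limma adjusted p = 0.000506). CPT2, which carries fatty acids into mitochondrial oxidation, had -0.84 with overlap (limma adjusted p = 0.00101). At CPT2 the means of Or67d, fru and dsx were 62.0, 66.0 and 66.6, beside 68.5 in Or47b and 125 in CS. At Mtp they were 124, 66.3 and 101, beside 55.0 in Or47b and 95.7 in CS. The insulator gene CTCF, sharing its peak with asRNA:CR45822, went from 1334 ± 142 to 1075 ± 182 (limma adjusted p = 0.0286), the smallest called change among the losses at -0.32. Genes were not grouped by a test, so these names describe single peaks.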
